A study of Mus musculus with 4 samples.

Results

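The genes described here are 10 of the 22913 genes in the files, and they code for the proteins that coat the fat droplet of an adipocyte and for the enzymes that break its fat down. They were taken by name and not by a filter on their values, but earlier results of these data were known when they were chosen. Each name matched 1 gene: the droplet proteins Plin1, Plin2, Plin4, Plin5 and Cidec, the lipases Pnpla2, Lipe and Mgll, and the lipase cofactors Abhd5 and G0s2. RNA was sequenced from dermal white adipose tissue (dWAT), the fat layer around the lower ends of hair follicles, of C57BL/6 mice. The tissue was microdissected from mouse skin with tissue of several mice in each group, and whether RNA of these mice was pooled is not stated. The 4 groups, with 1 library each, were OTD (old mice, 18 months, telogen, the resting phase of the hair cycle), YTD (young mice, 2 months, telogen), OAD (old mice, 18 months, anagen, the growth phase) and YAD (young mice, 2 months, anagen). Anagen was induced by depilation, so both anagen groups carry the plucking as well as the phase, and the labels name no other treatment. The age tag of the labels gives 18 months for YTD and 2 months for OAD, against their titles and the study's methods, and the titles were followed here.

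An adipocyte stores triglyceride in a droplet that is wrapped by perilipins (Plin1 to Plin5) and enlarged by CIDEC. Stored fat is released step by step: ATGL, the product of Pnpla2, takes the first fatty acid from triglyceride, HSL, the product of Lipe, cuts the diglyceride, and monoglyceride lipase, the product of Mgll, cuts the last bond. ABHD5 activates ATGL and G0S2 inhibits it, and in resting adipocytes Plin1 holds ABHD5 away from ATGL until catecholamines, through cAMP and protein kinase A, set it free. In skin, dWAT grows and shrinks with the hair cycle.

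With 1 library per group there was no spread between replicates, so a difference between 2 libraries has neither an error nor a p-value here. Levels are FPKM, the fragments counted for a gene relative to its length and to the depth of its library, and a change is the difference of log2(FPKM + 1) between 2 libraries, which understates the change of low genes. A gene was counted as past the 2-fold mark where this difference was at least 1 in size, and the same count over all genes above 0 in either library is given as the background. The depth, estimated from the lowest values, was roughly 17900000 to 23800000 fragments per library. Transcripts encoded in mitochondria took 44.7% of the summed FPKM in YTD, 52.7% in OTD, 14.4% in YAD and 18.3% in OAD, which matters for any scaling between the phases. Adipocyte markers were present in each library (Adipoq, adiponectin, at 76.5 to 427.1 FPKM and Cfd, adipsin, at 671 to 3401), and Ucp1, the defining gene of brown fat, was at 0 to 0.12.

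On FPKM as deposited, both telogen libraries lay above both anagen libraries for 9 of the 10 genes, Abhd5 being the exception, and the same held for 37.2% of the 18152 genes above 0 in any library. With FPKM rescaled to a fixed sum (TPM), YAD lay above YTD for Plin2 (by 0.29) and Mgll (0.49). OAD then lay above OTD for G0s2 (0.01), so fewer than 9 genes kept this order on that scale. The summed FPKM of the 10 genes was 1045 in YTD, 1084 in OTD, 415 in YAD and 460 in OAD. Cidec and Pnpla2 alone made up 56.8% of this sum in OTD and 54.9% in YTD, but 42.5% in OAD and 39.0% in YAD. By age, 0 members differed past the 2-fold mark in telogen (3.6% of all genes did, in either direction) and 0 in anagen (1.18%). By phase, 5 members were lower in anagen past the mark in young mice (16.7% of all genes) and 5 in old mice (15.6%). In bulk tissue fewer adipocytes cannot be told apart from less RNA of these genes per adipocyte. The plot of levels shows this split into 2 tiers for the droplet proteins and Pnpla2, and its near absence for Abhd5.

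**Figure D1:**
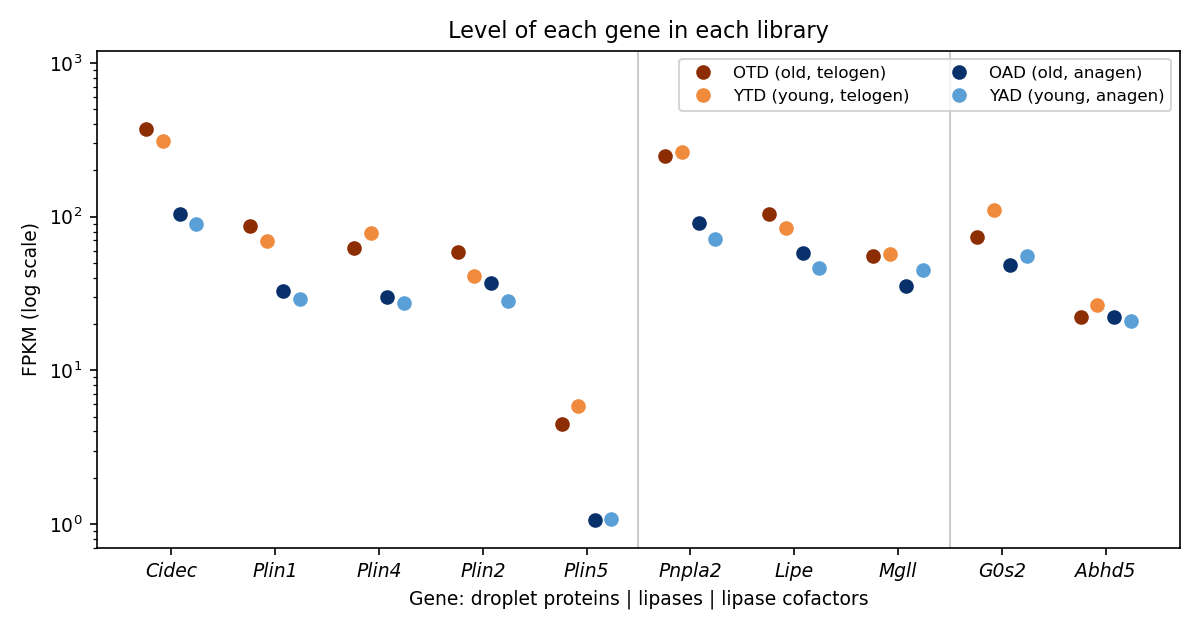
FPKM of each gene as deposited (log axis) in the 4 libraries, 1 point per library and no error bars because each group has 1 library. Telogen points (brown and orange) lie above anagen points (dark and light blue) for every gene but Abhd5, Cidec is the highest gene in each library and Plin5 the lowest.

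The listed length of each member equals its longest coding sequence with the stop codon in the GENCODE M21 annotation of GRCm38. On that build, as the files give them, Cidec lies at chr6:113424634-113435760 (minus strand), Pnpla2 at chr7:141455198-141460743 (plus), Plin1 at chr7:79721164-79732776 (minus), Plin2 at chr4:86656565-86670060 (minus), Plin4 at chr17:56100591-56109803 (minus), Plin5 at chr17:56111601-56117596 (minus), Mgll at chr6:88724412-88828360 (plus), Abhd5 at chr9:122351608-122381524 (plus), Lipe at chr7:25379527-25398710 (minus) and G0s2 at chr1:193272161-193273217 (minus). G0s2 lies inside Lamb3 on the opposite strand and shares 0 exon bases with it, and Lamb3 was at 0.31 to 2.27 FPKM. Lipe shares 918 exon bases with the antisense gene 4732471J01Rik, Abhd5 950 with A730085K08Rik and Mgll 167 with Gm26588. Plin4 shares 17 with Hdgfl2 on the opposite strand. As the strand of the libraries is not stated, reads within these shared bases cannot be told apart.

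Promoters are shown for the members with the lowest changes toward anagen, Cidec and Pnpla2, beside 2 that stayed short of the mark, Plin2 and Abhd5. Each is the 250 bases before the RefSeq start on GRCm38.p6, 5′ to 3′ on the strand of the gene, at chr6:113435761-113436010 (minus) for Cidec, chr7:141454938-141455187 (plus) for Pnpla2, chr4:86670060-86670309 (minus) for Plin2 and chr9:122351366-122351615 (plus) for Abhd5. Capitals mark matches on either strand to the GC box motif GGGCGG, the box motif CCAAT, the box motif TATAAA or a pair of AGGTCA copies 1 base apart with up to 2 mismatches in all, the kind of repeat that PPARG with its partner RXR is known to bind.
Cidec: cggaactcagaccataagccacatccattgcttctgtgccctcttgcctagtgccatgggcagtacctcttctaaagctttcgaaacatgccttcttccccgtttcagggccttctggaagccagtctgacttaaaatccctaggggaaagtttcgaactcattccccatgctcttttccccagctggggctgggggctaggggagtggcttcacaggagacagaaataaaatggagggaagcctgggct
Pnpla2: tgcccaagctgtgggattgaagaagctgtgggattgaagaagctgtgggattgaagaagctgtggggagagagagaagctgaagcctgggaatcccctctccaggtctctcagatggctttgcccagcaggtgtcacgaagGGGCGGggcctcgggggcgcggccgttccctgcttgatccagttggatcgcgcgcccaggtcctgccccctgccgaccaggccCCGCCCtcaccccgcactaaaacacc
Plin2: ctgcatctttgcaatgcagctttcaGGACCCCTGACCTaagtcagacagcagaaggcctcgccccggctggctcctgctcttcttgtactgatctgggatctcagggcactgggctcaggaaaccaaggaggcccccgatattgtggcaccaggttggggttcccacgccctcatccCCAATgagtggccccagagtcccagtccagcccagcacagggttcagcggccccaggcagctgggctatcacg
Abhd5: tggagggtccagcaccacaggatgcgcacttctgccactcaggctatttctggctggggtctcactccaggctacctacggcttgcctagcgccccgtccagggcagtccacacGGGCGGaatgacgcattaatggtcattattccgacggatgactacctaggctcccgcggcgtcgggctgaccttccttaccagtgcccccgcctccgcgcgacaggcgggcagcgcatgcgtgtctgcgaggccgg
In the 250 bases of Cidec none of the 4 motifs was found. By the first base of each match, Pnpla2 held a GC box at 109 and at 26 bases before the start and Abhd5 one at 136, while Plin2 held the AGGTCA repeat at 225 and a CCAAT box at 73. Over the 10 genes, with 14 RefSeq promoters, 6 genes held a GC box (Plin5, Pnpla2, Lipe, Mgll, Abhd5 and G0s2), 3 a CCAAT box (Plin2, Plin4 and Plin5), 0 a TATA box and 1 the repeat (Plin2). Of all 32851 promoters, 32.7% held a GC box, 33.8% a CCAAT box, 12.4% a TATA box and 3.24% the repeat. The 5 genes that passed the mark in anagen had no motif of these 4 in common. A match is a description of the letters in this window, and its absence says nothing of a factor that binds elsewhere.

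Cidec, which fuses small droplets into large ones, was the most abundant member in every library, at 309.4 FPKM in YTD, 369.9 in OTD, 90.1 in YAD and 104.3 in OAD. It ranked 256th among the 16695 genes above 0 in OTD and 800th among 17089 in YAD. The level in anagen was 3.43-fold lower in young mice and 3.55-fold lower in old mice, the log2 changes being -1.77 and -1.82. By age Cidec differed by 0.26 in telogen and 0.21 in anagen on the log2 scale, with the old library higher in both.

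Plin1, the perilipin that gates lipolysis in adipocytes, was at 69.4 FPKM in YTD, 86.7 in OTD, 29.1 in YAD and 33.0 in OAD. Its change from telogen to anagen was -1.23 in young and -1.37 in old mice, and the old library was higher by 0.32 in telogen and 0.18 in anagen. Plin4, a perilipin of nascent droplets, was at 77.8 in YTD, 62.6 in OTD, 27.5 in YAD and 30.1 in OAD, with changes toward anagen of -1.47 in young and -1.03 in old mice. The order of old and young for Plin4 was opposite in the phases: OTD lay below YTD (-0.31) and OAD slightly above YAD (0.13).

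Plin2, the perilipin found on droplets of most cell types, differed least between the phases among the 5 member droplet proteins. It was at 41.2 FPKM in YTD, 59.1 in OTD, 28.1 in YAD and 36.8 in OAD, which gives changes toward anagen of -0.54 in young and -0.67 in old mice, neither past the 2-fold mark. Its old-minus-young difference was the highest among the members in both phases, 0.51 in telogen and 0.38 in anagen.

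Plin5, a perilipin best known from tissues that burn fat such as heart, muscle and brown fat, was the scarcest member, at 5.87 FPKM in YTD, 4.47 in OTD, 1.07 in YAD and 1.07 in OAD. The values rest on roughly 153, 124, 27 and 35 fragments in the same order. In FPKM the anagen library was 5.47-fold lower in young mice and 4.19-fold lower in old mice, the widest ratios among the members, while on the log2(FPKM + 1) scale, which compresses low values, the changes were -1.73 and -1.40. Plin4 and Plin5 are neighbours on chromosome 17, on the same strand with 1797 bases between them, and the FPKM of Plin4 was 13.3 to 28.2 times that of Plin5 in the 4 libraries.

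Within each library the mix of perilipins can be read without any scaling between libraries. Of the summed FPKM of Plin1 to Plin5, Plin1 made up 32.7% in YTD, 37.5% in OTD, 28.5% in YAD and 28.6% in OAD. Plin2 made up 25.6% and 19.4% in the telogen libraries against 31.9% and 27.6% in the anagen libraries, old before young. Plin3, a perilipin that is not specific to fat and is not a member, went from 7.95% and 8.57% in telogen to 12.5% and 15.9% in anagen, with its own level at 18.2 FPKM in YTD, 18.4 in OTD, 16.2 in YAD and 14.4 in OAD. Plin5 made up 1.93% and 2.76% in telogen and 0.92% and 1.05% in anagen. Plin4 was the most abundant perilipin in YTD (36.6%), Plin1 in OTD and YAD, and Plin2 in OAD. The ratio of Plin2 to Plin1 was 0.68 in OTD and 0.59 in YTD, and 1.12 in OAD and 0.97 in YAD. How often other gene pairs part the phases in this way was not counted.

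**Figure D2:**
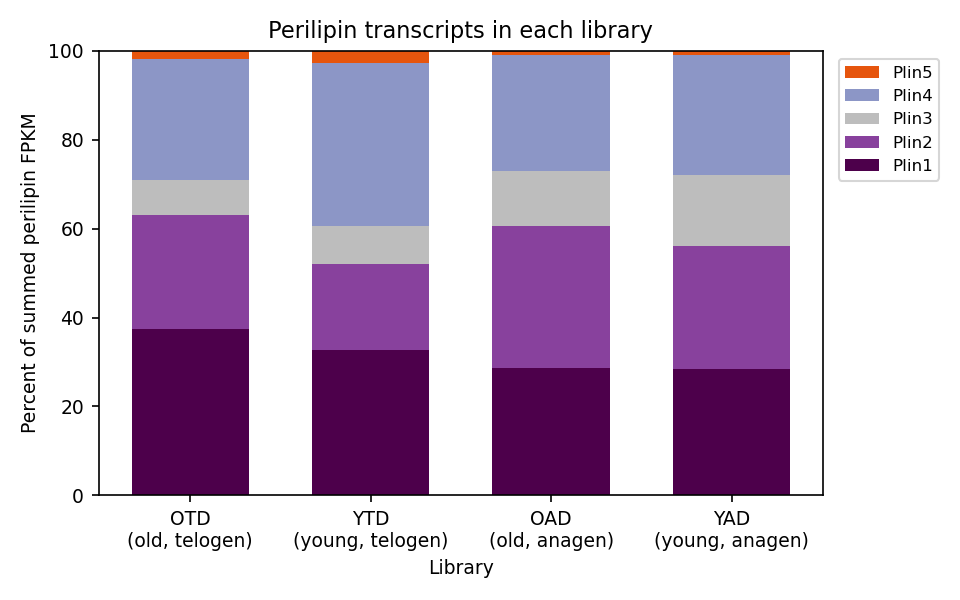
Each perilipin as a percent of the summed FPKM of Plin1 to Plin5, 1 bar per library. Plin2 and Plin3 together take a wider part of the 2 anagen bars, and Plin5 (top sliver, at most 2.76%) a narrower one.

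Pnpla2, which codes for ATGL, was the second most abundant member in each library and the most abundant lipase, at 264.1 FPKM in YTD, 246.2 in OTD, 71.5 in YAD and 91.1 in OAD. Its log2 change toward anagen was -1.87 in young mice, the lowest of the 10 genes, and -1.43 in old mice, 3.69-fold and 2.70-fold in FPKM. OTD and YTD differed by -0.10, and OAD exceeded YAD by 0.34. The printed promoter of Pnpla2 held a pair of GC boxes and that of Cidec held none.

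Lipe, which codes for HSL, was at 83.7 FPKM in YTD, 104.6 in OTD, 46.1 in YAD and 57.6 in OAD. It was 1.81-fold lower in anagen in both young and old mice (log2 change -0.85 in each) and stayed short of the 2-fold mark, and the old library was higher by 0.32 in telogen and 0.31 in anagen. On FPKM as deposited, Lipe was thus the member whose difference by age was most alike in the 2 phases. This ranking depends on the scaling. As TPM, the anagen difference minus the telogen difference was -0.23 for Lipe and 0.12 for Abhd5. The FPKM of Lipe rests on a listed length of 3219 bases, the longest coding form of the gene. Shorter coding forms have 2409 and 2280 bases, so the level of Lipe against other genes depends on the form that is expressed.

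Mgll was at 56.9 FPKM in YTD, 55.2 in OTD, 44.8 in YAD and 35.2 in OAD. It differed by -0.34 between anagen and telogen in young mice and by -0.64 in old mice, and OAD lay below YAD by 1.27-fold, the lowest age difference of a member in anagen (-0.34). The 3 lipases therefore moved by unequal amounts between the phases, Pnpla2 most and Mgll least in both ages.

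The ratios between the lipases show this within each library. Pnpla2 was 4.46 times Mgll in OTD and 4.64 times in YTD, but 2.59 times in OAD and 1.60 times in YAD. Lipe was 0.42 of Pnpla2 in OTD and 0.32 in YTD, and 0.63 in OAD and 0.65 in YAD. The ratio of Mgll to Lipe did not separate the phases: it was 0.68 in YTD, 0.53 in OTD, 0.97 in YAD and 0.61 in OAD, lower in the old library of each phase.

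G0s2, the inhibitor of ATGL, was at 110.1 FPKM in YTD, 73.3 in OTD, 55.5 in YAD and 48.1 in OAD. It had the lowest old-minus-young difference of the members in telogen (-0.58), and in anagen the difference was -0.20. Toward anagen it changed by -0.97 in young mice, just short of the 2-fold mark (1.98-fold in FPKM), and by -0.60 in old mice. On FPKM as deposited, Abhd5, the activator, varied least of the 10 genes, at 26.7 in YTD, 22.3 in OTD, 20.9 in YAD and 22.3 in OAD. Its change toward anagen was -0.34 in young mice and 0.00 in old mice, and by age it differed by -0.25 in telogen and 0.09 in anagen. The small change by phase depends on the scaling: as TPM, Abhd5 was higher in anagen by 0.47 in young and 0.59 in old mice.

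Set against the lipase they act on, both cofactors were higher in anagen. The ratio of Abhd5 to Pnpla2 was 0.091 in OTD and 0.10 in YTD, and 0.25 in OAD and 0.29 in YAD. The ratio of G0s2 to Pnpla2 was 0.42 in YTD, 0.30 in OTD, 0.78 in YAD and 0.53 in OAD, lower in the old library of each phase. The ratio of inhibitor to activator, G0s2 to Abhd5, went the other way between phases, at 3.28 in OTD and 4.13 in YTD against 2.16 in OAD and 2.66 in YAD, and again the old library was lower within each phase.

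**Figure D3:**
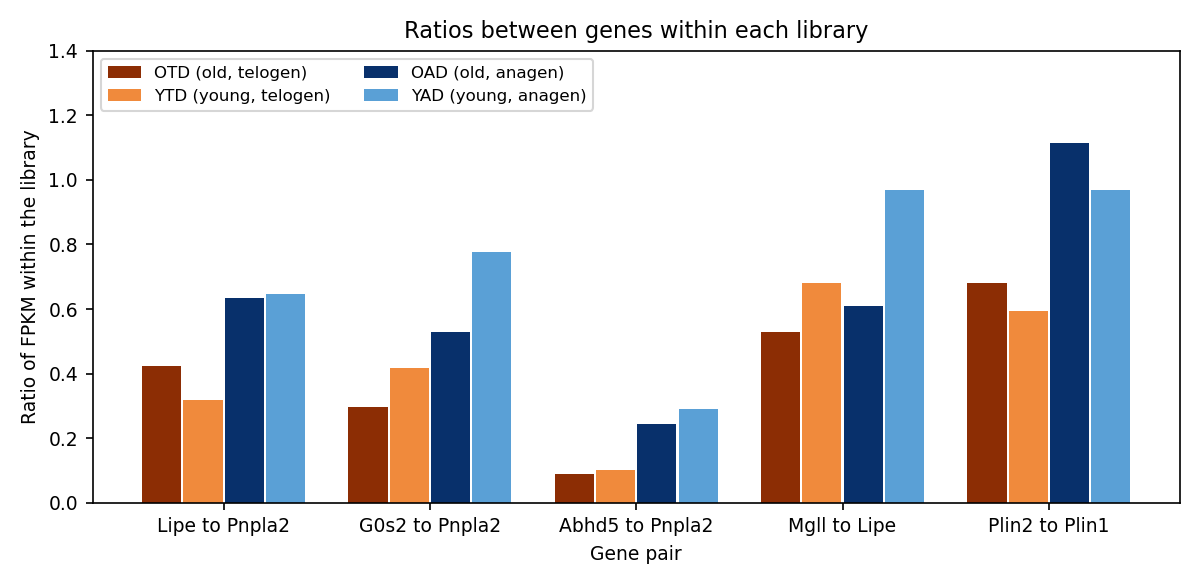
Ratio of FPKM between pairs of genes within each library (linear axis from 0), 1 bar per library. Both anagen bars exceed both telogen bars for Lipe, G0s2 and Abhd5 against Pnpla2 and for Plin2 against Plin1. Mgll to Lipe overlaps between the phases (0.61 in OAD, 0.68 in YTD). The ratios against Pnpla2 share a divisor that was itself lower in anagen. The share of other gene pairs with such a split was not counted.

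Taking the members as a group by age, 0 of 10 passed the 2-fold mark in telogen, where 3.6% of 17230 genes did in either direction, and 0 of 10 in anagen, where 1.18% of 17613 did. In telogen 4 members were higher in old mice (45.8% of all genes were), namely Plin1, Plin2, Cidec and Lipe, and 6 were lower, with a median of -0.07 and a range of -0.58 to 0.51. In anagen 7 members were higher in old mice (50% of all genes were), with a median of 0.15 and a range of -0.34 to 0.38. Medians over all genes were -0.03 and 0, and those of 11 adipocyte markers were 0.08 in telogen and 0.30 in anagen. Of these markers, 7 were higher in old mice in telogen and 10 in anagen (7 and 8 as TPM). Below the marker median lay 6 members in telogen and 7 in anagen. The 4 members higher in OTD were also the higher ones in OAD, G0s2, Mgll and Plin5 were lower in the old library in both phases (Plin5 by 0.00 in anagen), and Plin4, Pnpla2 and Abhd5 differed in sign. These signs are of small differences and depend on the scale: with FPKM rescaled to a fixed sum (TPM), Plin1, Plin4, Cidec and Abhd5 took the other sign in anagen, without mitochondrially encoded genes Pnpla2 and Mgll did so in telogen, and as TPM the median of all genes itself moved to -0.16 in anagen. On the estimated fragments, an exact 95% binomial interval of the ratio, which covers counting error alone, included 1 for Mgll in telogen and for 3 members in anagen, Plin5, Abhd5 and G0s2.

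From telogen to anagen, all 10 members were lower in young mice, where 48.8% of all genes were, and 9 in old mice, where 49% were (rescaling by the median of ratios put Abhd5 below 0 as well). Past the 2-fold mark, Plin1, Plin4, Plin5, Cidec and Pnpla2 fell in young mice, 5 of 10 against 16.7% of 17622 genes, and in old mice the count was also 5 of 10, the same genes, against 15.6% of 17712. Among genes of at least 1 FPKM, a condition that every member met, the shares were 21.4% and 19.9%. The median change was -1.10 in young and -0.94 in old mice, with the median of all genes at 0.02 and 0.01. By role, 4 of 5 droplet proteins, 1 of 3 lipases and 0 of 2 cofactors passed the mark in each age. The young and the old comparison use different libraries, but each library also serves in a comparison by age. Rescaling to TPM moved the median of all genes to 0.45 in young and 0.32 in old mice and the members' medians to -0.27 and -0.33, so that relative to all genes they were lower by a median difference of -0.72 and -0.65 (-1.12 and -0.95 as deposited). On the TPM scale Plin2, Mgll and Abhd5 in young mice and Abhd5 (0.59) and G0s2 (0.01) in old mice were above 0. The count past the mark on that scale was 2 in young and 1 in old mice. Of all genes past the mark, 49.1% in young and 50.8% in old mice were higher in anagen as deposited, and 82.2% and 76.6% as TPM.

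**Figure D4:**
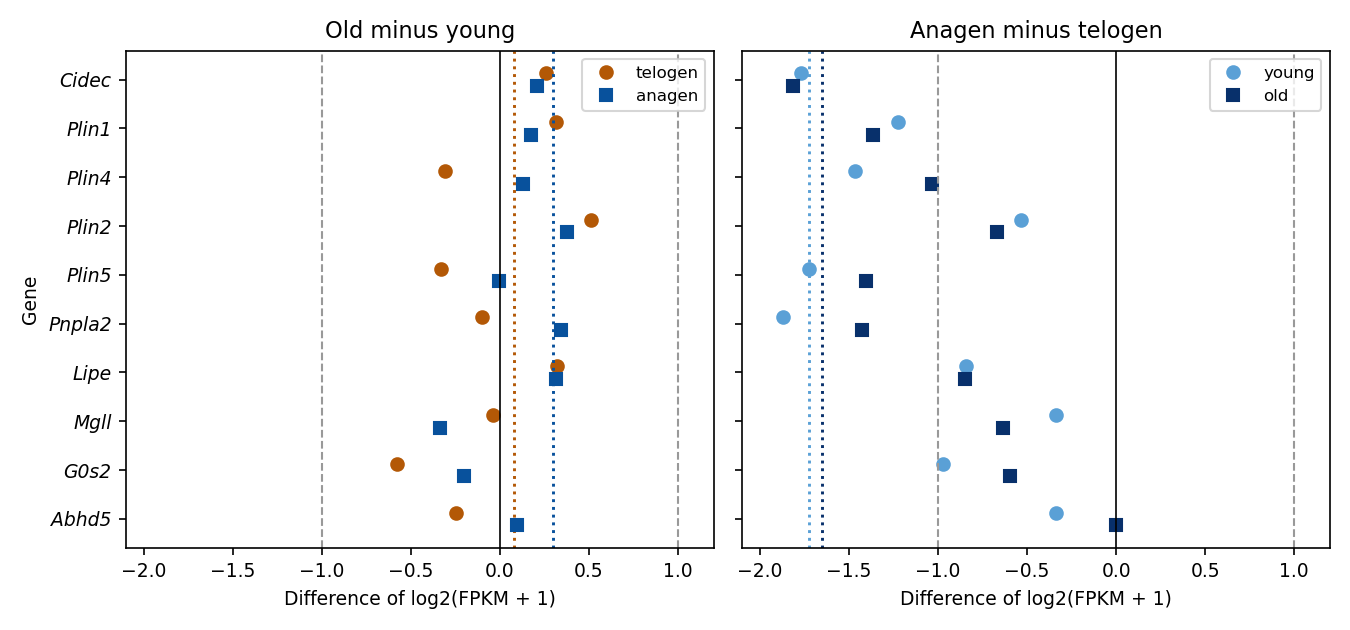
Difference of log2(FPKM + 1) for each gene by age (left) and by phase (right), as deposited, with dashed lines at -1 and 1 and dotted lines at the median of 11 adipocyte markers in the same comparison. No point passes the dashed lines by age, and Plin1, Plin4, Plin5, Cidec and Pnpla2 pass on the lower side by phase in both ages. As TPM, not drawn, Plin2, Mgll and Abhd5 in young mice and Abhd5 and G0s2 in old mice lie above 0 by phase.

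Other transcripts of adipocytes moved with the members. All 11 adipocyte markers were lower in anagen in both ages as deposited (10 of 11 in each age as TPM), with a median change of -1.73 in young and -1.65 in old mice, and their summed FPKM was 11863 in YTD, 12652 in OTD, 2563 in YAD and 3525 in OAD. Distances from that median are free of the scaling between libraries apart from the pseudocount. Above it were 7 members in young mice and 9 in old mice. The median of all genes, 0.02 in young and 0.01 in old mice, was above it too. Single markers ranged from -2.97 to -0.28 in young and from -2.55 to -0.22 in old mice, with Cebpa the highest. Every member in young mice and every member but Abhd5 in old mice lay within these ranges. Cidec lay at -0.04 and -0.16 from the marker median, Pnpla2 at -0.14 in young and 0.23 in old mice, and Plin5 at 0.00 and 0.25. At the other end Abhd5 lay at 1.39 and 1.66, Mgll at 1.39 and 1.02, Plin2 at 1.19 and 0.98 and G0s2 at 0.75 and 1.06. For comparison, Adipoq changed by -1.86 in young and -2.04 in old mice, while the lowest member was Pnpla2 at -1.87 in young and Cidec at -1.82 in old mice.

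Markers of other cell types moved as well, and their part in the values of the members was not tested. All 12 skeletal muscle markers were lower in anagen as deposited (11 in old mice as TPM), by medians of -3.05 in young and -1.99 in old mice, and all 12 were lower in OTD than in YTD (median -0.67). They took 7.60% of the summed FPKM in YTD, 4.82% in OTD, 1.58% in YAD and 1.76% in OAD. Of the members, Pnpla2, Plin4 and Plin5, which muscle fibres also express, were higher in YTD than in OTD as those markers were. So were G0s2, Abhd5 and Mgll, while Plin1, Plin2, Cidec and Lipe were higher in OTD. As TPM without mitochondrially encoded genes, Pnpla2 (0.12) and Mgll (0.18) were higher in OTD as well. Fitm1, which codes for a droplet protein of skeletal muscle, was at 363.6 FPKM in YTD, 191.6 in OTD, 33.8 in YAD and 34.8 in OAD. All 12 macrophage markers were lower in anagen, by medians of -1.43 in young and -2.19 in old mice. By age 11 of 12 were higher in OTD than in YTD (median 0.42) and 0 of 12 in OAD than in YAD (median -0.26), whereas Plin2, which macrophages also express, was higher in the old library of both phases. As deposited, all 8 endothelial markers were lower in anagen past the mark in both ages (medians -1.53 and -1.85) and all 8 were higher in the old library of both phases (medians 0.62 in telogen and 0.30 in anagen). As TPM all 8 were again lower in anagen, with 2 past the mark in young and 7 in old mice. By age as TPM, 8 were higher in OTD than in YTD and 5 in OAD than in YAD. Of 8 fibroblast markers, 7 were lower in anagen in each age (medians -1.17 and -2.75; 6 in young mice as TPM), 6 were higher in OTD than in YTD and 1 was higher in OAD than in YAD. All 9 keratinocyte markers were higher in anagen, with medians of 3.71 and 4.94. All 10 listed keratins of the hair shaft and inner root sheath (Krt71, Krt25 and Krt27 of the latter) were higher in anagen. Their medians were 6.57 in young and 7.99 in old mice. They took 0.02% to 0.03% of the summed FPKM in telogen and 2.44% in both anagen libraries. All 6 melanocyte markers were higher in anagen. Of 8 markers of sebocytes, cells of the sebaceous gland with droplets of their own, 6 were higher in OTD than in YTD and 3 of 7 were higher in OAD than in YAD, with medians of 0.27 and 0.00, Krt79 alone passed the mark by age (1.22 and 1.23), and the defining gene Awat2 was at 0.30 to 0.67 FPKM.

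The wider machinery was read from a list of 54 genes in 5 groups. By age in telogen as deposited, 1 of 54 was higher and 1 lower past the mark, a share near the 3.6% of all genes: the esterase Ces1f (1.04) and Pnpla3, a relative of ATGL (-1.62, 4.30 FPKM in OTD and 15.2 in YTD). As TPM without mitochondrially encoded genes 4 were higher and 1 lower, where 926 of 17230 genes passed the mark. Also without muscle markers and keratins, 3 were higher and 1 lower past the mark, where 968 of all genes passed. By age in anagen 1 of 53 was past it, Adrb3, higher in old mice by 1.05 (12.6 FPKM in OAD, 5.57 in YAD), against 1.18% of all genes. As TPM, with or without the genes left out, 0 of 53 were past it. Adrb3 codes for the beta-3 adrenergic receptor, through which catecholamines start lipolysis in mouse adipocytes. From telogen to anagen, 26 of 53 were lower past the mark in young mice (16.7% of all genes were) and 22 of 54 in old mice (15.6%). Higher past it were 5 in young mice (16.1% of all genes) and 6 in old mice (16.1%), and the list had medians of -0.94 and -0.81. As TPM these counts were 7 and 15 lower, and 8 and 7 higher, so the counts of single groups hold for FPKM as deposited, and each is to be read against those shares of all genes.

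Among the receptors, 6 of 10 were lower in anagen past the mark in young mice and 4 of 10 in old mice, where 16.7% and 15.6% of all genes were. They included Ptger3, a prostaglandin receptor that restrains lipolysis (-2.03 and -2.05), Npr1, the receptor of natriuretic peptides (-1.37 and -1.64), and Adora1, an adenosine receptor that restrains lipolysis (-1.62 and -1.19). Adrb3 passed the mark in young mice (-1.50) and not in old mice (-0.75), as did Hcar1 (-1.27 and -0.83) and Insr (-1.22 and -0.88), and the differences between the ages were not tested. Npr3, which clears natriuretic peptides, passed it in old mice (-1.15) and not in young mice (-0.94).

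Of the 14 genes of cAMP and cGMP signalling, 7 were lower past the mark in young mice (16.7% of all genes) and 6 in old mice (15.6%), and 1 was higher in each (16.1% of all genes in each). Gnas, the stimulatory G protein, changed by -2.04 and -1.46, Prkg1, a cGMP-dependent kinase, by -1.93 and -1.68, and the phosphodiesterases Pde3b, Pde4b and Pde4d, which break down cyclic nucleotides, by -1.45 to -2.21 in young and -1.71 to -1.80 in old mice. Adcy3 was the higher one (1.32 and 1.04), from below 1 FPKM in telogen to 2.81 in YAD and 3.11 in OAD. Prkaca, a catalytic subunit of protein kinase A, and Prkar2a passed the mark in young mice (-1.21 and -1.47) and not in old mice (-0.44 and -0.57), and Prkar2b passed it in old mice (-1.33) and not in young mice (-0.90).

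Of 18 other droplet proteins, 8 of the 17 compared were lower past the mark in young mice (16.7% of all genes) and 7 of 18 in old mice (15.6%). Fitm1 changed by -3.39 and -2.43 and Fitm2, which helps droplets leave the endoplasmic reticulum, by -1.68 and -1.08. Cav1, caveolin-1, changed by -2.34 and -2.71, Cavin1 by -1.48 and -1.66, Cavin2 by -1.53 and -2.47, Hsd17b11 by -1.38 and -2.20 and Pcyt1a, an enzyme of phosphatidylcholine synthesis, by -1.50 and -1.15. Cidea was past the mark in young mice alone (-1.25, and -0.22 in old mice), at 0.67 to 2.98 FPKM in all. Faf2 (1.30 and 1.16) and Acsl3, an acyl-CoA synthetase of new droplets (1.16 and 1.72), were higher in anagen.

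Of 8 other lipases, 3 were lower past the mark in both ages, where 16.7% and 15.6% of all genes were: Ces1d (-1.76 and -2.36), Ces1f (-1.57 and -2.17) and Lipa, the lysosomal acid lipase (-1.36 and -2.46). Pnpla1, a lipid enzyme of the epidermis, was higher by 3.11 and 3.87, from 0.47 FPKM in YTD and 0.20 in OTD to 11.7 in YAD and 16.6 in OAD. Pnpla3 was higher in anagen in old mice (1.31) and differed by -0.34 in young mice. Of 4 genes that handle the products, Aqp7, the glycerol channel, changed by -1.92 and -1.53 and Fabp4, the adipocyte fatty acid binding protein, by -1.19 and -1.32. Fabp5, its relative in keratinocytes, was higher by 3.56 and 3.08, at 98.6 FPKM in YTD, 109.2 in OTD, 1177 in YAD and 929 in OAD.

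**Figure D5:**
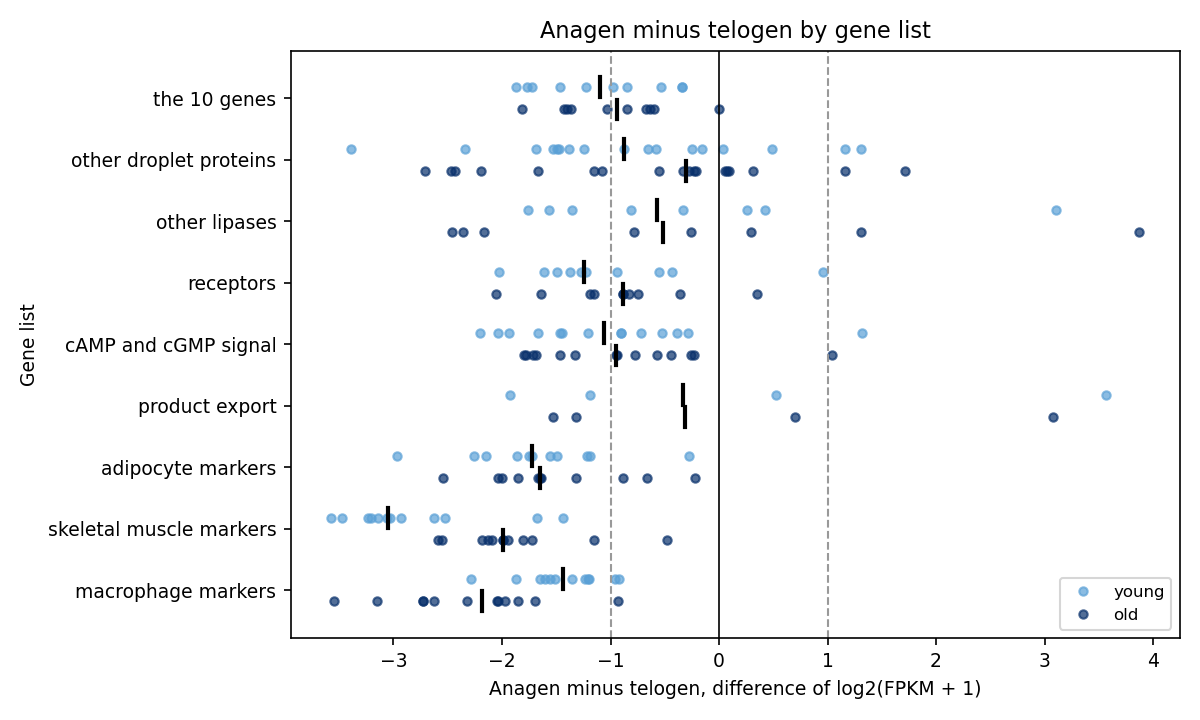
Anagen minus telogen difference of log2(FPKM + 1), as deposited, for each gene of each list (points) in young and old mice, with the list's median as a black bar and dashed lines at -1 and 1. The 10 genes span -1.87 to 0.00, the adipocyte markers have medians of -1.73 and -1.65, and the muscle markers lie lowest in young mice at -3.05.

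The 5 genes whose pattern over the 4 libraries came nearest to the median pattern of the members, among 4323 genes of at least 10 FPKM in all libraries, were Pcmtd1, Tmed4, Etfdh, S100a13 and Zfand5. The distance, over log2(FPKM + 1) centred on each gene's mean, was 0.052 for Pcmtd1 and 0.080 for Zfand5, and with 4 libraries many genes can lie near any pattern. Etfdh, a flavoprotein dehydrogenase of mitochondria, was at 44.7 FPKM in YTD, 42.8 in OTD, 19.2 in YAD and 19.8 in OAD. Of the members, Plin4 lay nearest to their median pattern (0.23) and Abhd5 farthest.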

How the data were processed

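Gene expression was measured by RNA sequencing of dWAT of C57BL/6 mice in 4 libraries, 1 per group (YTD, OTD, YAD and OAD), and groups were taken from the sample titles. The authors deposited FPKM, with a length and a GRCm38 position for each gene, and their processing notes name bcl2fastq and TopHat2. The counting tool, the annotation and any scaling between libraries are not given in the sources used here. Of 22913 identifiers, 21750 matched a symbol. Of the deposited gene lengths, in bases, 97.0% are multiples of 3, as coding lengths are.

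FPKM were used as deposited, with a pseudocount of 1 before log2. Fragments per library were estimated from features of 2000 to 4000 bases and are rough. Steps were tested on simulated data. The members and lists were chosen with earlier results of these data known. Genes named are the members, genes of the pathway lists past the 2-fold mark with at least 1 FPKM, markers of other cell types and the nearest profiles. Alternatives were a pseudocount of 0.1, rescaling by median ratios (of 11181 genes), to TPM, and to TPM without mitochondrially encoded genes or also without muscle markers and keratins, a threshold of 1.5-fold and a filter of 1 FPKM. Python 3.11.15, numpy 2.4.6, pandas 2.3.3, scipy 1.17.1 and matplotlib 3.10.9 were used. Promoter sequences are from RefSeq. 1 gene of the pathway lists is not reported here and was left out of their counts.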

Additional observations from a re-analysis of the deposited data

Results flagged for a closer look

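For Pnpla2, Plin4 and Abhd5 the old library lay below the young one in telogen and above it in anagen. The old-minus-young change was higher in anagen than in telogen by 0.45 for Pnpla2, 0.44 for Plin4 and 0.34 for Abhd5 on the log2(FPKM + 1) scale, and with 1 library per group the difference was not tested. Seen the other way, Abhd5 changed by -0.34 from telogen to anagen in young mice and by 0.00 in old mice, a difference of 0.34 that was not tested either. These differences depend on the scaling. As TPM they were 0.22 for Pnpla2, 0.21 for Plin4 and 0.12 for Abhd5, and as TPM without mitochondrially encoded genes 0.063 for Pnpla2, 0.059 for Plin4 and -0.029 for Abhd5, so that of Abhd5 turned.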

How the results depend on the processing

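No paired analysis was possible because each group has 1 library, and leaving out a library was not run. Rescaling by the median of ratios left each of 40 member changes within 0.1, and a pseudocount of 0.1 left 38. TPM left 10 within 0.1, TPM without mitochondrially encoded genes 1, and TPM also without muscle markers and keratins 11. Signs of some small differences also turned. The median of ratios turned Mgll by age in telogen, Plin5 by age in anagen and Abhd5 by phase in old mice. TPM turned 4 members by age in anagen, 3 by phase in young and 1 in old mice. No member passed the mark by age under any of these settings. Median member change in telogen by age became 0.15 as TPM without mitochondrially encoded genes and 0.0894 also without muscle markers and keratins, and in anagen -0.0732 as TPM, -0.00759 without mitochondrially encoded genes and 0.0384 also without the others. By phase it became -0.27 in young and -0.33 in old mice as TPM, -0.90 and -1.12 without mitochondrially encoded genes, and -0.83 in young mice also without the others. Members past the mark were then 2 in young and 1 in old mice as TPM, and 9 in old mice at 1.5-fold. Over all genes, the count by age was 968 in telogen and 376 in anagen with the most genes left out, 315 in anagen without mitochondrially encoded genes, 2144 and 1109 with a pseudocount of 0.1, and 2754 and 875 at 1.5-fold, against 620 and 208 as deposited. By phase it was 9213 in young and 9009 in old mice at 1.5-fold. The share of calls by age that were higher in old mice moved from 46.3% to 70.8% in telogen without mitochondrially encoded genes and from 61.5% to 37.3% in anagen as TPM. The cause of these shifts was not tested.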
